A study of Homo sapiens with 18 samples.

Results

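Gene expression after chemical inhibition of EZH2 was measured in MDA-MB-231, an established human triple-negative breast cancer cell line, by comparing cells exposed to GSK126 at 1 uM for 72 h with cells exposed to the vehicle DMSO for 72 h. The comparison used the libraries whose labels named DMSO or GSK126, which were 4 of the 10 distinct libraries of the series, with 2 replicates in each group. Libraries with the same replicate number were treated as a pair. The remaining 6 libraries came from a separate knockdown experiment in the same line. There, cells carried a Control shRNA or a hairpin against EZH2 (shEZH2) or E2F1 (shE2F1), were exposed to lentivirus for 24 h and were then selected with puromycin for 72 h. The authors' methods describe virus and puromycin for the knockdown cells and not for the drug-treated cells. The drug and the hairpins were therefore compared across experiments that differed in handling. The labels do not say whether the replicates were separate cultures, and p-values therefore measure only the spread between these libraries. In the paired fit of the drug libraries this is the spread left once the difference between the pairs is removed, estimated largely by pooling over genes.

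Polycomb repressive complex 2 (PRC2) places methyl groups on lysine 27 of histone H3 through its enzyme EZH2. The trimethylated form of this residue (H3K27me3) marks silent genes, many of them regulators of development, and is read by polycomb repressive complex 1 (PRC1). GSK126 is a small molecule that occupies the S-adenosylmethionine pocket of EZH2 and blocks methyl transfer while leaving the protein in place, whereas a hairpin lowers the EZH2 transcript. The question that the comparison addresses is which transcripts respond when the enzymatic activity alone is inhibited.

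The 4 libraries held 16940131 to 20055550 expected counts each, and mitochondrial transcripts took 4.91% to 5.41% of them. The 8 markers that MDA-MB-231 cells are known to carry, among them VIM, CD44, AXL and CAV1, were present at 15.1 to 2860 TPM (length-scaled transcript abundance) in every library. Among 9 luminal breast markers, 4 stayed under 1 TPM in every library, namely ESR1, PGR, FOXA1 and CDH1, while the luminal keratin KRT19 was abundant at 830 to 847 TPM. Other members were detected at lower levels, ERBB2 at 30.1 to 32.5 TPM, EPCAM at 26.2 to 37.7 TPM, GATA3 at 6.93 to 11.3 TPM and TFF1 at 0.78 to 1.54 TPM. Leukocyte and endothelial marker lists summed to 0.83 to 1.83 TPM and 0.38 to 0.77 TPM. The fibroblast list summed to 9.97 and 10.3 TPM in the DMSO libraries and to 11.7 and 13.6 TPM in the GSK126 libraries. Of its 5 members DCN was at 0 in all 4 libraries, COL1A1 was at 6.31 to 7.67 TPM, and LUM passed as higher from at most 1.33 TPM.

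Replicate 1 and replicate 2 differed in the same manner in both drug groups. Over 11906 genes with a mean of at least 50 counts, the log2 difference between the DMSO replicates and the log2 difference between the GSK126 replicates had a correlation of r = 0.71, and 81.4% of these genes differed in the same direction, in values taken across genes that are not independent. A DMSO library and the GSK126 library of the same number differed by an SD of 0.23 (replicate 1) and 0.21 (replicate 2) on the log2 scale. Replicates of the same group differed more, by 0.29 in both groups. In the blocked model 40.1% of genes separated the replicates at an adjusted p under 0.05. The replicate number was fitted as a block.

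**Figure D1:**
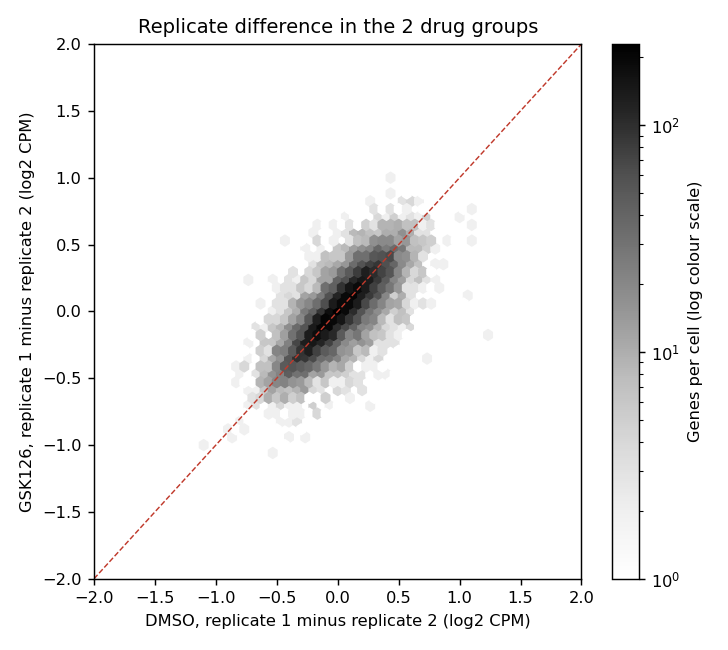
Each axis gives the difference between replicate 1 and replicate 2 on the log2 CPM scale, in DMSO (horizontal) and in GSK126 (vertical), for 11906 genes with a mean of at least 50 counts. Grey cells are shaded by the number of genes on a log scale, 14 genes lie outside the axes, and the cloud follows the dashed line of equal difference, with r = 0.71.

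Expression is given as CPM, counts relative to the library total, after scaling by trimmed mean of M values (TMM), in the order replicate 1 and replicate 2. Changes are log2 ratios of GSK126 to DMSO from edgeR's quasi-likelihood fit with the replicate block, with their standard errors (SE), and adjusted p-values are Benjamini-Hochberg values from that fit over all 14632 genes tested. Genes are described as called where the adjusted p was under 0.01 and the change exceeded 2-fold, and as passed where the adjusted p was under 0.05 whatever the change. Of the genes tested, 53 were called higher (0.362%) and 15 lower (0.103%). Far more genes moved by less than 2-fold, since 922 passed as higher (6.3%) and 1068 as lower (7.3%). The genes that passed as higher had a median change of 0.34 and a median DMSO level of 14.8 TPM, while those that passed as lower had a median change of -0.19 and a median DMSO level of 46.3 TPM. With library offsets for GC content and gene length, 895 genes passed as higher and 1666 as lower.

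These calls rest on the replicate block, which leaves 1 residual degree of freedom. Without the block edgeR called no gene and passed none at an adjusted p under 0.05. There 577 of 14632 genes had an unadjusted p under 0.05, fewer than that threshold alone would give among unchanged genes. DESeq2 without the block called 7 genes, and DESeq2 with the block called 0 and passed 189, with an adjusted p given for 3590 genes and for 1 of the 68 genes called by edgeR, so that its count says little about those genes. When the spread was estimated from all 10 libraries, 10 genes passed, all of them higher, and CLDN1 alone was called. Those 10 genes were EFEMP1, CLDN1, HHIP, KRT34, FLG, PMEPA1, TFPI2, AKAP12, INHBA and TNC, with edgeR adjusted p-values from 0.00257 to 0.0384 in that fit. The pairs share no library, and their changes over 11906 genes with at least 50 counts on average correlated at r = 0.49 with the same direction in 68.2% of genes.

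**Figure D2:**
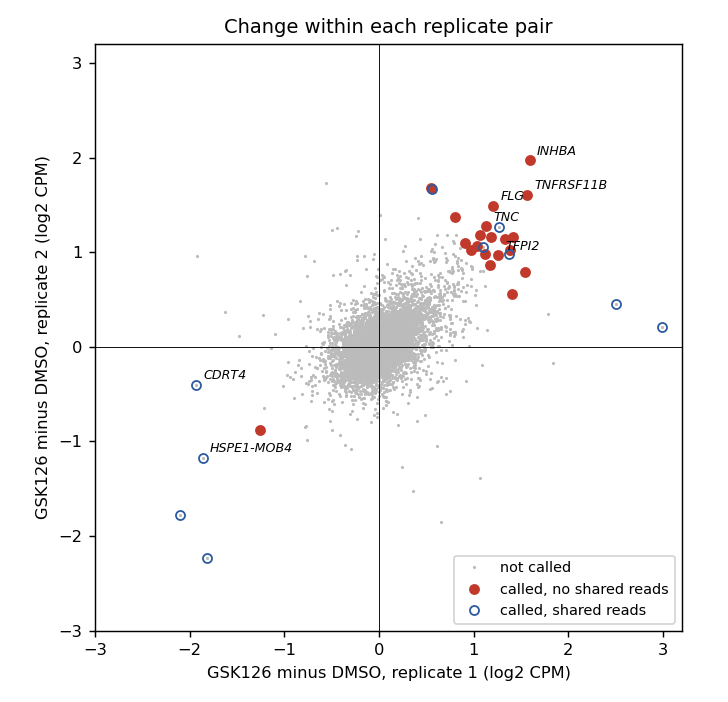
Each point is 1 of 11906 genes with a mean of at least 50 counts, plotted by its log2 CPM change in pair 1 (horizontal) and in pair 2 (vertical), with 1 gene outside the axes. Filled red points are 20 called genes without shared reads, which lie away from 0 in both pairs, and open blue points are 10 called genes whose reads RSEM divided between genes, several of which moved mainly in 1 pair.

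The transcripts of PRC2 itself moved little under the inhibitor, in bulk RNA where a change in the make-up of the cells and a change per cell cannot be told apart. EZH2 was at 123 and 124 CPM under DMSO and 132 and 141 CPM in GSK126, so that both treated libraries lay above both controls. Its log2 change was 0.14 ± 0.041 (SE), which passed (edgeR adjusted p = 0.015), and the same transcript fell by 1.79 in shEZH2. RBBP4, a histone chaperone of the complex whose reads were partly divided with other genes, fell by 0.16 (edgeR adjusted p = 0.00462). Its groups overlapped, at 153 and 119 CPM under DMSO and 136 and 108.3 CPM in GSK126. The scaffold SUZ12 (-0.11), the H3K27me3 reader EED (0.09), the alternative catalytic subunit EZH1 (-0.06) and the chaperone RBBP7 (-0.03) did not pass, with edgeR adjusted p-values of 0.0967 to 0.68. The counts that follow stand beside 6.3% passed as higher and 7.3% as lower over all genes tested. They come from lists of few genes, chosen with earlier results of these data known. Among 8 accessory subunits tested, 2 passed as lower (25% of the list), LCOR with a fall of 0.16 and PHF1 of 0.15, and 6 did not pass. In PRC1, 3 of 25 genes passed as higher (12%), 2 of them without shared reads, and 22 did not pass, with a median change of 0.03. The genes that passed were the H3K27me3-binding chromobox gene CBX2 (0.43), the polyhomeotic gene PHC1 (0.49) and YAF2 (0.34), which encodes a RYBP-like subunit. Of 20 genes for other histone-modifying enzymes, acting on H3K27, H3K36 or H3K4 or removing acetyl groups, 4 passed (20%), all lower and by at most 0.23. These were the H3K4 demethylases KDM5A and KDM5B, the H3K4 methyltransferase KMT2A and the H3K36 methyltransferase ASH1L. Of these lower genes, 3 were without shared reads.

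INHBA encodes the beta A subunit of activin A, a ligand of the TGF-beta family, and had the largest change among the called genes with unique symbols, a mean of at least 50 counts and higher expression. It was at 5.21 and 4.26 CPM under DMSO and 15.9 and 17.03 CPM in GSK126. The groups did not overlap, and the change was 1.79 ± 0.14 (edgeR adjusted p = 1.72e-12). FST, which encodes follistatin, a secreted protein that binds and neutralises activin, also rose, from 64.4 and 53.8 CPM to 121 and 115 CPM (change 1.00 ± 0.049, edgeR adjusted p = 1.97e-17). Follistatin was chosen for mention after its values were seen. TNFRSF11B, the gene of the decoy receptor osteoprotegerin, was at 7.56 and 5.31 CPM in DMSO and at 22.6 and 16.4 CPM in GSK126, a change of 1.60 ± 0.12 (edgeR adjusted p = 9.87e-13). In each of these 3 genes both treated libraries lay above both controls, as in 15.3% of all genes tested. Called genes, here and below, were selected for a difference in these same libraries.

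HHIP, which encodes a decoy that binds Hedgehog ligands, rose from 12.1 and 8.96 CPM to 27.7 and 20.2 CPM, a change of 1.18 ± 0.10. TFPI2, a secreted inhibitor of serine proteases, was at 14.1 and 14.9 CPM under DMSO and 33.7 and 29.3 CPM in GSK126 (change 1.12 ± 0.090). SEMA3E, a secreted ligand of plexin D1, went from 3.91 and 3.38 CPM to 8.45 and 7.12 CPM (change 1.09 ± 0.17). All 3 had groups that did not overlap, and their edgeR adjusted p-values were 2.61e-11, 6.4e-12 and 1.91e-05. PRSS12, which encodes the extracellular protease neurotrypsin, was low, at 1.35 and 2.16 CPM under DMSO and 3.76 and 4.96 CPM in GSK126, with a change of 1.32 ± 0.25 (edgeR adjusted p = 0.000246). PTGS2, the inducible cyclooxygenase, was lower still at 0.651 and 0.775 CPM and 2.49 and 1.63 CPM (change 1.52 ± 0.40, edgeR adjusted p = 0.00685), and was chosen after its values were seen. The chemokine CXCL1 rose from 1.65 and 1.66 CPM to 4.11 and 4.14 CPM, but it carried reads that were divided with other genes.

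TNC, which encodes the matrix glycoprotein tenascin C, was at 13.7 and 17.04 CPM under DMSO and 30.1 and 41.4 CPM in GSK126, a change of 1.21 ± 0.084 (edgeR adjusted p = 1.97e-13). MFAP2, a component of elastic microfibrils, went from 2.20 and 3.87 CPM to 6.60 and 6.77 CPM (change 1.16 ± 0.20, edgeR adjusted p = 7.14e-05). The tight junction gene CLDN1 went from 9.66 and 7.69 CPM to 24.4 and 17.03 CPM (change 1.25 ± 0.11, edgeR adjusted p = 6.41e-11). Neither group of libraries overlapped the other in these 3 genes. FLG, which encodes the epidermal protein filaggrin, stood at 23.3 and 14.001 CPM under DMSO and 53.9 and 39.5 CPM in GSK126, and its change was 1.33 ± 0.078 (edgeR adjusted p = 1.89e-15). Its replicate 1 values exceeded its replicate 2 values in both groups. The hair keratin gene KRT34, whose reads were partly divided with other genes, changed by 1.18 ± 0.10, and TNS4, a tensin of focal adhesions, by 1.12 ± 0.26. NNMT, a methyltransferase that consumes S-adenosylmethionine to methylate nicotinamide, rose from 9.66 and 10.5 CPM to 25.3 and 21.3 CPM, a change of 1.21 ± 0.11 (edgeR adjusted p = 5.89e-11). RADX, which encodes a single-stranded DNA-binding protein of replication forks, went from 1.90 and 1.77 CPM to 4.11 and 4.14 CPM (change 1.16 ± 0.25).

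**Figure D3:**
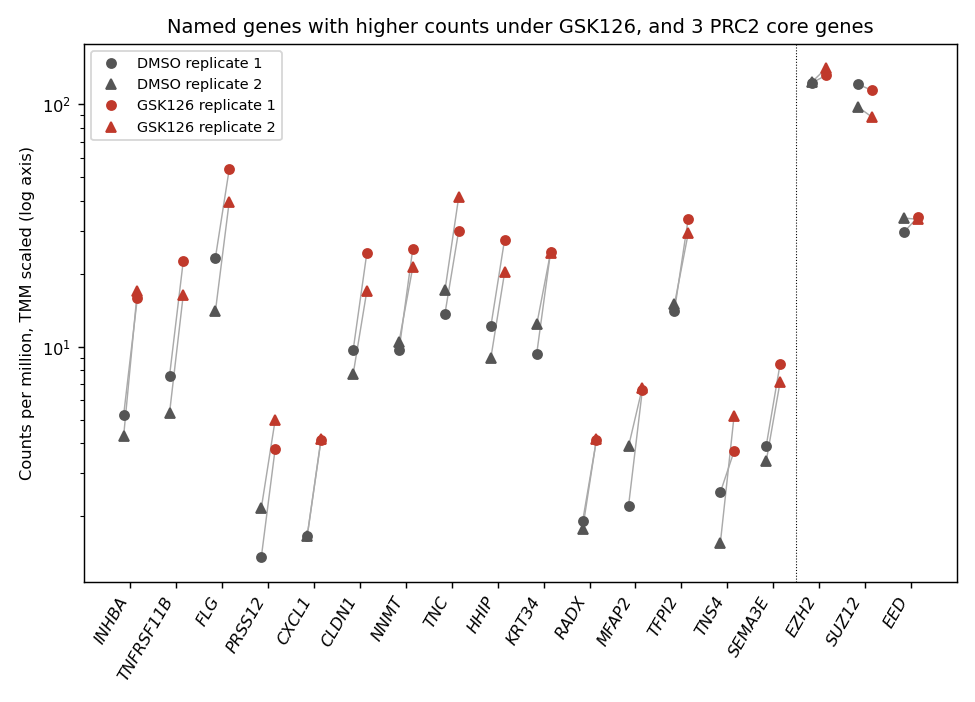
CPM values after TMM scaling (log axis) are shown in each of the 4 libraries for the 15 named genes with the largest higher change, ordered by it, and for EZH2, SUZ12 and EED right of the dotted line. Circles are replicate 1, triangles replicate 2, and grey lines join a pair. Both GSK126 libraries lie above both DMSO libraries for each of the 15 genes, which were selected for a difference in these same libraries, and INHBA shows the widest gap. Over all genes tested, GSK126 lay above DMSO without overlap in 15.3%.

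Among the 53 genes called higher, the median change was 1.32 and the median DMSO level 0.815 TPM, and 25 had a mean of at least 50 counts. All 53 moved the same way in both pairs, and in 52 the groups did not overlap, where the call itself required a difference, and GSK126 lay above DMSO without overlap in 15.3% of all genes tested. Of these genes 47 were protein coding. The gene with the smallest p, EFEMP1, fell short of 2-fold: this fibulin of the extracellular matrix was at 159.9 and 147 CPM under DMSO and 302 and 272 CPM in GSK126 (change 0.90 ± 0.035, edgeR adjusted p = 1.48e-20). AKAP12, a kinase-anchoring scaffold, changed by 0.91 ± 0.067, from 25.9 and 29.6 CPM to 50.8 and 53.5 CPM. ERRFI1, which encodes an inhibitor of the EGF receptor, had the smallest p among genes that fell, with 575 and 565 CPM in DMSO against 409 and 384 CPM in GSK126 (change -0.52 ± 0.028, edgeR adjusted p = 3.17e-16). EFEMP1, AKAP12 and ERRFI1 were picked after their values were seen, and none of their groups overlapped.

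Promoter sequences are shown for the 4 genes called higher with the largest change among those with unique symbols, at least 50 counts on average and no shared reads, with TNFRSF11B named only, because PRC2 is known to act at promoters rich in CpG dinucleotides. Each is the 250 bases before the RefSeq transcription start on GRCh38.p14, read 5′ to 3′ on the minus strand, with CpG dinucleotides in capitals. They lie at chr7:41703091-41703340 (INHBA), chr1:152325240-152325489 (FLG), chr4:118353004-118353253 (PRSS12) and chr3:190322447-190322696 (CLDN1).
INHBA: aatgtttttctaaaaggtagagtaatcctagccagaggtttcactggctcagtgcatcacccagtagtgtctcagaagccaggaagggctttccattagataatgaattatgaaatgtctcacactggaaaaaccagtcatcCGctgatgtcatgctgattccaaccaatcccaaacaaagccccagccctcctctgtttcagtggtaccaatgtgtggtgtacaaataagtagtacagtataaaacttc
FLG: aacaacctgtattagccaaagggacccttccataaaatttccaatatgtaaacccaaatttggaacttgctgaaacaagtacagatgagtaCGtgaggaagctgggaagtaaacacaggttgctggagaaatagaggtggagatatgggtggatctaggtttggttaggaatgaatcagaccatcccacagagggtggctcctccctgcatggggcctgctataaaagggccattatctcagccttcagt
PRSS12: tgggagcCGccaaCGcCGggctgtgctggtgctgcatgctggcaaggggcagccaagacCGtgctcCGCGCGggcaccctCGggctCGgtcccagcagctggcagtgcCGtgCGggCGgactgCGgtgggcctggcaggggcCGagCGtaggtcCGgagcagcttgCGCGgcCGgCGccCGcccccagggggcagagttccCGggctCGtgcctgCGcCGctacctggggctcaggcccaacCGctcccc
CLDN1: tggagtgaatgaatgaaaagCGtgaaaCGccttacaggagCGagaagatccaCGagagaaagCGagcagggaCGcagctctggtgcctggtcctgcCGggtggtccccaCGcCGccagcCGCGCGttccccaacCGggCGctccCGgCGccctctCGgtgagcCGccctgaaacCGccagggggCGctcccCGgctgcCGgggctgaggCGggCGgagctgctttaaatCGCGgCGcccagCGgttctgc

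The 4 promoters fell into unlike classes. The INHBA and FLG sequences hold 1 CpG each, with 42.8% and 45.6% G and C, whereas those of PRSS12 and CLDN1 hold 26 and 28 CpG with 76.4% and 68.8% G and C. In windows from 250 bases before to 50 bases after the start, 34 of the 53 genes called higher matched a RefSeq promoter by unique symbol. Of these, 25 (73.5%) had over 50% G and C and a ratio of observed to expected CpG above 0.6, against 80.2% of 10763 matched genes tested and 46.8% of all 27305 promoters in the table. The AP-1 motif TGANTCA, searched on both strands after the values were seen, occurred in 5 of the 34 windows (14.7%), namely FST, TFPI2, FLG, MFAP2 and SNX10, against 4.63% of the matched genes tested and 7.76% of all promoters. The TEAD motif GGAATG, also searched on both strands, occurred in 3 of the 34 (8.82%), against 10.8% of the matched genes tested and 14.05% of all promoters.

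The genes called lower were of another kind. Among the 15 genes, 14 held expected counts that were not whole in at least 1 drug library, which means that RSEM divided reads between them and other genes. The same held for 19 of the 53 genes called higher and for 22.9% of all genes tested. Without such genes 34 higher calls and 1 lower call remained. The single lower call with whole counts was ENSG00000227706, a noncoding RNA gene on chromosome 6, at 4.86 and 4.70 CPM under DMSO and 1.97 and 2.51 CPM in GSK126 (change -1.10 ± 0.23). Symbols among the 14 included the read-through genes HSPE1-MOB4 (-1.57) and BLOC1S5-TXNDC5, the latter at 1.90 and 1.49 CPM in DMSO and at 0 in both GSK126 libraries, at least 19.5-fold lower against the 3 counts over the group that a count of 0 allows. CDRT4 was at 14.6 and 1.88 CPM under DMSO and 3.76 and 1.40 CPM in GSK126, and its groups overlapped. In 11 of the 15 genes called lower the groups did not overlap, where GSK126 lay below DMSO without overlap in 13.1% of all genes tested.

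Replication-dependent histone genes illustrate the uncertainty of shared reads, since copies of the same histone are nearly identical and lack poly(A) tails. Of 23 tested, 2 passed as higher and 5 as lower, and 14 carried shared reads. The H4 copies H4C14 and H4C15, which encode the same protein, were called in opposite directions, with H4C14 at 3.35 and 5.48 CPM in DMSO against 0.579 and 1.11 CPM in GSK126 and H4C15 at 0.801 and 0.885 CPM against 3.18 and 3.15 CPM. With the effective length offset neither copy passed, at -1.45 for H4C14 and 0.22 for H4C15 (edgeR adjusted p = 0.0919 and 0.823). H2BC4 was called lower (-1.21 ± 0.28), with 3.15 and 3.87 CPM and 1.33 and 1.69 CPM. H2AC6, with whole counts, fell by 0.38 (edgeR adjusted p = 0.000403). The median change of the list was -0.19.

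Gene lists are described by the number of members that passed, beside 6.3% higher and 7.3% lower over all genes tested and a median change of -0.01 over all genes. List members were chosen with earlier results of these data known. Their shares and medians are therefore descriptions, and an excess over all genes is not independent evidence. None of the 204 list genes that passed did so in edgeR without the replicate block.

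Chemokines and cytokines had the highest median change of the 27 lists. Of 24 tested, 11 passed as higher and 1 as lower, the median change was 0.42, and 19 were higher in both pairs. CXCL8, which recruits neutrophils, was at 60.7 and 45.05 CPM under DMSO and 112 and 79.6 CPM in GSK126 (change 0.86 ± 0.050, edgeR adjusted p = 1.89e-15). The inflammatory cytokine IL6 was at 35.4 and 36.2 CPM under DMSO and 63.5 and 55.5 CPM in GSK126 (change 0.73 ± 0.063, edgeR adjusted p = 4.63e-11). In both genes the treated libraries lay above the controls. CSF2, the gene of granulocyte-macrophage colony stimulating factor, rose by 0.86, the gp130 cytokine IL11 by 0.41, and the inflammasome product IL1B by 0.78. CSF1, which drives macrophage survival, was the member that fell, from 504 and 462 CPM to 430.3 and 365 CPM (change -0.28 ± 0.030). The list holds 3 genes with shared reads, CXCL1, CXCL2 and CXCL3, and 8 members without shared reads passed as higher. The leukocyte marker list, which summed to at most 1.83 TPM, was at 1.59 and 0.83 TPM in DMSO and at 1.83 and 1.17 TPM in GSK126, and its part in these values was not tested.

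Among 34 mesenchymal and matrix genes 15 passed as higher, 4 as lower and 15 did not pass, with a median change of 0.26. THBS1, the gene of thrombospondin 1, was at 1044 and 1080 CPM under DMSO and 1467 and 1483 CPM in GSK126, a change of 0.47 ± 0.023 (edgeR adjusted p = 9.05e-18). CCN2, the connective tissue growth factor gene, was at 266 and 406 CPM and 388 and 571 CPM, where replicate 2 exceeded replicate 1 in each group and the groups overlapped. Within its pairs CCN2 was higher under GSK126 in both, by 0.52 ± 0.029 in the fit (edgeR adjusted p = 1.06e-15). FN1 rose by 0.49 (fibronectin), TGFBI by 0.51 (a TGF-beta-induced adhesion protein) and COL6A3 by 0.70 (a collagen VI chain). Among the lower members were the intermediate filament gene VIM (-0.16 ± 0.019) and LOXL2 (-0.26), which encodes a lysyl oxidase. LUM and MMP13 had the largest list changes, 1.63 and 2.46, but both stayed under 2 CPM in every library. The fibroblast marker list, summed at 9.97 to 13.6 TPM, shares LUM with this list, and LUM was its only member that passed. Its members COL1A1, COL1A2 and PDGFRB changed by 0.09, 0.83 and 0.37 without passing (edgeR adjusted p = 0.665, 0.0657 and 0.098), and DCN was at 0. The part of fibroblast transcripts in these values was not tested.

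Genes of TGF-beta feedback were divided. Of 23, 6 passed as higher and 3 as lower, with a median change of 0.06. Besides INHBA, the Smad-signalling inhibitor PMEPA1 rose from 55.3 and 63.4 CPM to 89.5 and 96.7 CPM (change 0.65 ± 0.049, edgeR adjusted p = 1.82e-12), as did the BMP-binding gene BMPER (0.86) and the latent TGF-beta binding genes LTBP1 (0.40) and LTBP2 (0.38). The BMP-responsive genes ID1 and ID3 fell by 0.48 and 0.63. ID1 was at 58.6 and 67.3 CPM under DMSO and 36.7 and 54.01 CPM in GSK126, and both treated values were below both controls. Immediate early genes were mixed, with 7 of 25 higher and 5 lower, and EGR1, a zinc finger transcription factor, moved furthest. EGR1 was at 19.9 and 49.4 CPM under DMSO and 32.7 and 93.4 CPM in GSK126, where the groups overlapped and replicate 2 was over 2-fold higher in each, and the paired change was 0.85 ± 0.064 (edgeR adjusted p = 1.5e-12).

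Among 25 cholesterol synthesis genes 12 passed as higher, 1 as lower and 12 did not pass, with a median change of 0.15 and 18 members higher in both pairs. DHCR7, a sterol reductase of the final steps, was at 194 and 226 CPM under DMSO and 238 and 273 CPM in GSK126 (change 0.28 ± 0.034, edgeR adjusted p = 8.12e-08). HMGCS1, an early enzyme of the mevalonate pathway, rose by 0.26. TM7SF2, a sterol reductase, was the member that fell (-0.41).

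Among 31 hypoxia and glycolysis genes 20 passed as lower, 1 as higher and 10 did not pass, with a median change of -0.14, and 25 were lower in both pairs. LDHA, the muscle-type lactate dehydrogenase gene, was at 2413 and 2350 CPM under DMSO and 2024 and 2073 CPM in GSK126 (change -0.22 ± 0.021, edgeR adjusted p = 6.6e-10). PGK1, the phosphoglycerate kinase gene, was at 963 and 1021 CPM and 838 and 873 CPM (change -0.21 ± 0.024, edgeR adjusted p = 2.72e-08). For both genes the treated libraries lay below the controls, by about the size seen in the mitophagy receptor gene BNIP3 (-0.30). The hypoxia-induced carbonic anhydrase gene CA9 fell by 0.52, the furthest of the list. VEGFA, an angiogenic growth factor under hypoxic control, was the member that rose (0.25 ± 0.032). Of these 31 genes 14 carried shared reads, and among the others 8 passed as lower.

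Among lysosomal genes 10 of 27 passed as lower, 1 as higher and 16 did not pass, with a median change of -0.08. CTSD, the gene of the aspartic protease cathepsin D, was at 1935 and 1930 CPM under DMSO and 1510 and 1449 CPM in GSK126 (change -0.39 ± 0.022, edgeR adjusted p = 7.09e-16), with shared reads and no overlap between groups. The autophagy receptor gene SQSTM1 fell by 0.22 and LAMP2, a lysosomal membrane protein gene, by 0.18, while the cathepsin gene CTSL rose by 0.16. Among 21 NRF2 targets 7 passed as lower, 1 as higher and 13 did not pass, with the quinone reductase gene NQO1 at 161 and 158 CPM under DMSO and 121 and 129 CPM in GSK126 (change -0.36 ± 0.040). The stress list (unfolded protein and integrated stress responses) had 7 of 31 lower and 2 higher, and DDIT4, an inhibitor of mTORC1, fell by 0.41.

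**Figure D4:**
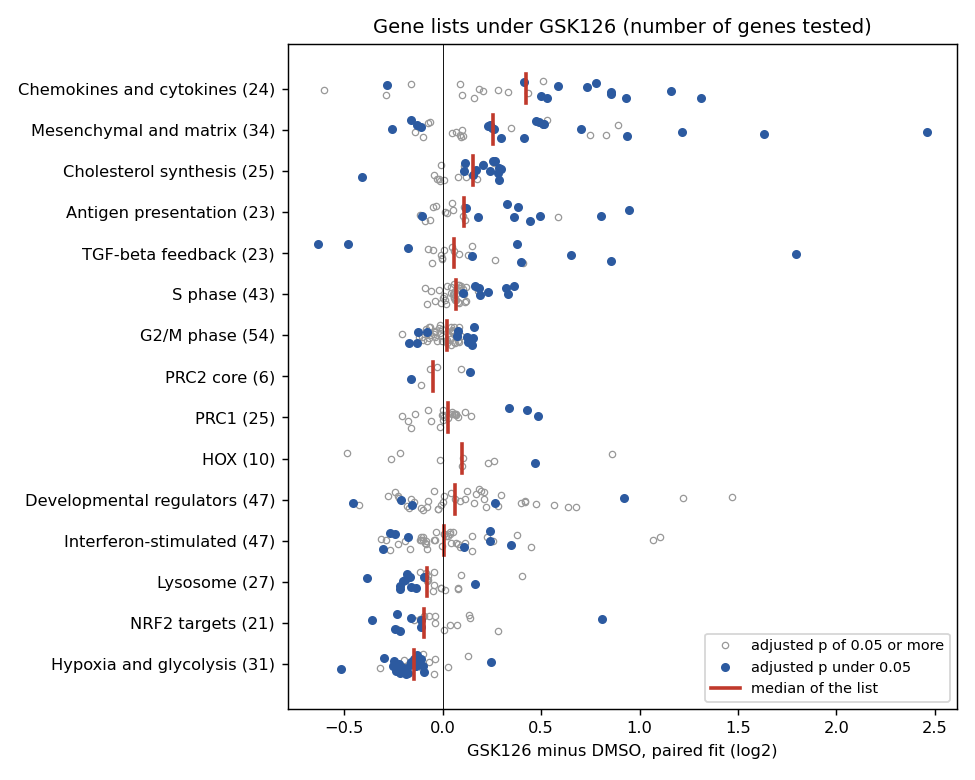
Each point is a gene, plotted by its log2 change between GSK126 and DMSO in the paired fit, for 15 lists with the number of genes tested in parentheses. Blue points passed at an adjusted p under 0.05, open points did not, and red bars are medians, which run from 0.42 for chemokines and cytokines to -0.14 for hypoxia and glycolysis.

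The lists that stand for polycomb targets are set beside the 6.3% higher and 7.3% lower over all genes tested. Of 39 HOX genes 10 were tested, and HOXB9 alone passed, with 16.3 and 17.7 CPM under DMSO and 23.3 and 23.9 CPM in GSK126 (change 0.47 ± 0.090, edgeR adjusted p = 0.000261). Of 174 developmental regulators, transcription factors and signalling genes often marked by H3K27me3, 47 were expressed enough to be tested. Among these 2 passed as higher (4.26%), 3 as lower (6.38%), and 42 did not pass, with a median change of 0.06. Both percentages lay near those over all genes. The nuclear receptor gene NR2F1 rose from 2.45 and 2.05 CPM to 3.30 and 5.42 CPM (change 0.92 ± 0.25, edgeR adjusted p = 0.00832), and its relative NR2F2 fell by 0.21. Of 12 tested genes known as EZH2-repressed in cancer cells, 2 passed as higher and 2 as lower (16.7% each). The guidance ligand gene SLIT2 (0.28) and the CDK inhibitor gene CDKN1C (0.40) rose, and TIMP2 and PEBP1 fell by 0.12 and 0.13. Of 30 cancer-testis antigen genes 4 were tested and none passed in edgeR at an adjusted p under 0.05, and 1 had an unadjusted p under 0.05.

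Of the 5 cell cycle genes that the study followed, a choice not independent of these libraries, RRM2, a subunit of ribonucleotide reductase, passed with a change of 0.10 ± 0.034 (edgeR adjusted p = 0.0337). The mitotic genes CDC20 (0.02 ± 0.033), CCNB1 (0.07 ± 0.032) and PLK1 (0.05 ± 0.042) and the E2F family gene E2F5 (0.09 ± 0.14) did not pass. E2F1 itself passed with 83.6 and 106 CPM under DMSO and 101 and 117 CPM in GSK126, where groups overlapped and the paired change was 0.20 ± 0.045 (edgeR adjusted p = 0.00151). Among 43 S phase genes 8 passed, all higher, with a median change of 0.07 over the list, and CDCA7, a MYC and E2F target, at 0.36. Among 54 G2/M genes 8 passed as higher and 4 as lower, and the median was 0.02. The CDK inhibitor gene CDKN1A rose by 0.20, while the p53 list as a whole had 3 genes higher, 5 lower and 18 that did not pass.

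Among 23 antigen presentation genes 9 passed as higher, 1 as lower and 13 did not pass, with a median change of 0.11. Of the 23, 10 carried shared reads, and among the others 6 passed as higher and 1 as lower. HLA-B, a class I heavy chain gene with shared reads, was at 153 and 162 CPM under DMSO and 208 and 221 CPM in GSK126 (change 0.44 ± 0.036, edgeR adjusted p = 8.67e-12). The class II genes HLA-DPB1 (0.95), HLA-DMB (0.80) and HLA-DRA (0.38) passed from low levels, with HLA-DMB at 5.36 and 3.93 CPM and 8.80 and 7.41 CPM. Interferon-stimulated genes split evenly, with 4 of 47 higher and 4 lower (2 and 3 without shared reads) and a median of 0.00. In this list the guanylate-binding gene GBP2 rose by 0.35 and the antiviral genes IFIT2 and IFIT3 fell by 0.30 and 0.27. Among 28 epithelial genes 5 passed as higher and 5 as lower, but 11 carried shared reads. Without those genes 4 passed as higher and 0 as lower. In the methionine cycle list, which holds the genes that make and use S-adenosylmethionine, 2 of 11 passed as higher and 2 as lower, NNMT being the furthest. In fatty acid synthesis 1 of 13 passed as higher and 3 as lower (1 and 1 without shared reads).

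The genes called under GSK126 were then read in the knockdown of EZH2, which shares no library with the drug experiment. Of the 53 genes called higher, 52 were tested there, and 16 (30.8%) were called higher and 3 (5.77%) lower, where 7.52% and 10.7% of all 15373 genes tested were called higher and lower. In shE2F1, which shares the Control shRNA libraries with shEZH2, 15 (28.8%) were called higher and 2 (3.85%) lower, beside 5.6% and 5.96% over all genes. Of the 15 genes called lower, 12 were tested in each knockdown, and 1 was called higher and 1 lower in shEZH2, against 1 higher and none lower in shE2F1. Without shared reads, 9 of 34 genes called higher were called higher in shEZH2 and 3 lower. Leaving out Control shRNA replicate 2 reduced the calls in the same direction from 17 to 11.

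Genes called higher in both experiments included CLDN1 (1.25 under GSK126 and 2.76 in shEZH2), COBLL1 (1.06 and 3.38), TNC (1.21 and 2.20), NNMT (1.21 and 2.18) and PRSS12 (1.32 and 1.68). CCND2, the gene of cyclin D2, rose from 0.851 and 0.719 CPM to 2.95 and 3.15 CPM under GSK126 (change 1.94 ± 0.33, shared reads) and by 3.46 in shEZH2. ADAM12, a membrane metalloprotease gene, changed by 1.25 and 2.51, DEPDC7 by 1.92 and 2.31, and both were low, at most 2.62 CPM in the drug libraries. The noncoding RNA ENSG00000227706 was called lower in both (-1.10 and -4.62). Opposite calls were found for SEMA5A (1.97 and -3.35), FGFR4 (1.02 and -1.44) and TFPI2 (1.12 and -1.23), and for H2BC4 in the other direction (-1.21 and 3.08). INHBA, the leading gene under the inhibitor, was at 0.11 in shEZH2 (edgeR adjusted p = 0.814) and at 1.71 in shE2F1.

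**Figure D5:**
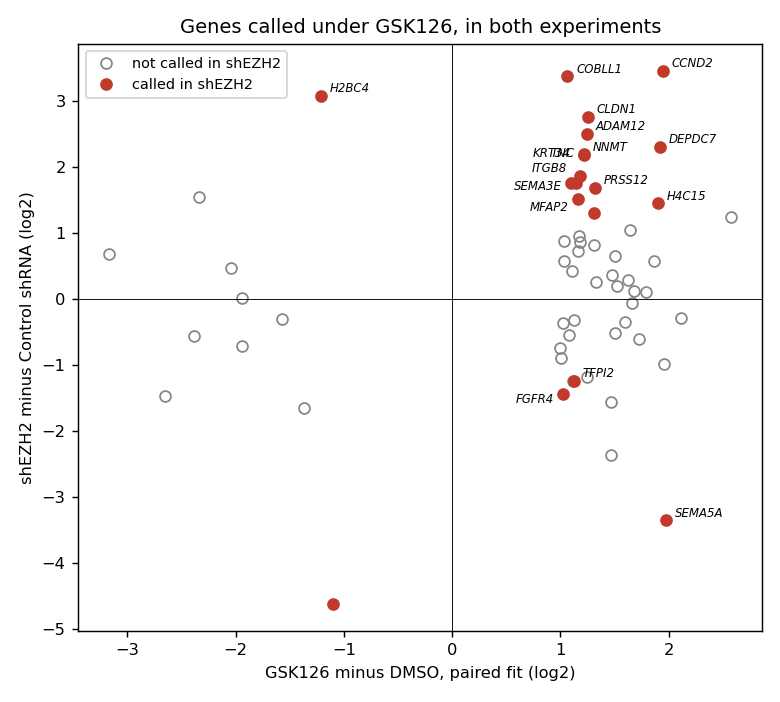
Log2 changes under GSK126 (horizontal) and in shEZH2 (vertical) are shown for 60 genes called under GSK126 and tested in both, leaving out 4 genes with a fitted change beyond 5, which had no counts in either library of a group. Filled red points are 19 genes also called in shEZH2, most of them in the upper right, with SEMA5A, TFPI2, FGFR4 and H2BC4 in the opposite quadrants.

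Over all genes the inhibitor and the hairpin changes were nearly unrelated, at r = 0.06 across 11905 genes with at least 50 counts, which are not independent. Of the 922 genes that passed as higher, 915 were tested in shEZH2 and 161 (17.6%) were called higher and 126 (13.8%) lower. Of the 1068 that passed as lower, 1060 were tested and 41 (3.87%) were called higher and 132 (12.5%) lower. Over all genes tested in shEZH2, 7.52% were called higher and 10.7% lower, so the lower shares of both sets lay close to that of all genes. The share called higher lay above 7.52% for genes that passed as higher and below 7.52% for genes that passed as lower.

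The difference between the GSK126 effect and the shEZH2 effect was tested directly in an edgeR fit of all 10 libraries with a replicate block for the drug libraries. Of 15773 genes, 1493 (9.47%) had a GSK126 effect above and 871 (5.52%) below the shEZH2 effect. Among the 53 genes called higher 15 differed, 12 of them above, and among the 15 called lower 3 differed, where the same GSK126 values had chosen the genes. TFPI2 differed by 2.34 (edgeR adjusted p = 3.39e-05) and FST by 1.73 (edgeR adjusted p = 0.000674). CLDN1, higher in both, rose less under GSK126, by a difference of -1.53 (edgeR adjusted p = 0.000104). For EZH2 itself the difference was 1.92 (edgeR adjusted p = 1.18e-05).

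The 5 cell cycle genes that the study followed were at a median change of -1.65 in shEZH2, which is given as a description because the study chose them with the knockdown known. In the direct comparison CCNB1 was at 1.34 and RRM2 at 1.78. Lists are set beside 9.47% above and 5.52% below over all genes tested. In the S phase list 12 of 43 genes, and in the G2/M list 8 of 54, had a GSK126 effect above the shEZH2 effect, and none below. Antigen presentation genes differed in 9 of 23 cases and interferon-stimulated genes in 13 of 47, all with the GSK126 effect above. HLA-DRA, for example, changed by 0.38 under GSK126 and by -1.32 in shEZH2, a difference of 1.69 (edgeR adjusted p = 0.000272). Replication-dependent histones differed in 10 of 23 cases, all with the GSK126 effect below, and 14 of the 23 carried shared reads. In the mesenchymal and matrix list 13 of 33 tested genes were called higher in shEZH2 and 2 lower, beside 7.52% and 10.7% over all genes tested there. In the direct comparison 7 of 34 had a GSK126 effect below and 3 above. LOX, a collagen cross-linking enzyme gene, changed by 0.41 under GSK126 and by 4.35 in shEZH2. Chemokines and cytokines had 5 of 24 called higher and 1 lower in shEZH2, beside the same 7.52% and 10.7%, with IL11 at -3.09 there. In the direct comparison 3 of these genes were above and 2 below.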

How the data were processed

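Libraries of poly(A)-selected RNA from the MDA-MB-231 line were prepared with a directional kit and sequenced. The authors mapped reads to hg38 with STAR and an Ensembl annotation and estimated gene abundance with RSEM, modelling read start positions, and the submitters' processing notes name STAR 2.7.2b and RSEM 1.3.1. The deposited expected counts divide reads that map to several genes. The deposited TPM values, which the authors scaled by gene length and library, were used for levels and not for tests. Whether counting used the strand is not given in the sources used here, so overlapping antisense genes may share reads. The 18 records held 10 distinct libraries. The other 8 records (2 in the drug groups) carried identical values and were dropped. The labels gave the group and the replicate number.

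Expected counts of 62703 genes were rounded. Names and GRCh38 coordinates came from GENCODE release 44, which is newer than the authors' annotation and held 62625 of the identifiers (99.9%), and 40559 genes had a unique symbol. In R 4.3.3, edgeR 4.0.16 kept genes by filterByExpr, scaled by TMM and fitted group and replicate to the 4 drug libraries, with a quasi-likelihood F-test and Benjamini-Hochberg adjustment. The block leaves 1 residual degree of freedom, and the biological coefficient of variation was 0.0242 with it and 0.126 without it. The 6 knockdown libraries were fitted without a block, and all 10 together for the direct difference. Pairing of the replicate numbers rests on the data: over 11918 genes the difference between replicates correlated at 0.66 between DMSO and GSK126 and at -0.08 to 0.20 between other groups. Within-pair changes used log2(CPM + 0.1). A count was taken as whole within 0.005. Library totals in the drug groups allow up to 0.15 to 0.177 CPM for a count of 0 (3 counts, counting error only).

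The authors tested with DESeq2, run here (1.42.0) as an alternative, as was limma-voom (limma 3.58.1). Other alternatives were the other scaling and filters, an effective length offset, offsets from splines of GC content and length (5 degrees of freedom), all 10 libraries, and leaving out a pair. The comparison and the 27 gene lists were chosen with earlier results of these data known. Named genes comprised the PRC2 core and E2F1, and of the called genes with a unique symbol and a mean of at least 50 counts the 15 higher and 10 lower with the largest change. To these were added up to 10 per direction called the same way in shEZH2, up to 4 passed genes per list by smallest p, and the study's cell cycle genes. Promoters came from RefSeq tables on GRCh38.p14. Scripts were tested on simulated data. A few genes that the rule named are not reported here.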

Additional observations from a re-analysis of the deposited data

How the results depend on the processing

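The replicate block decided the calls. With it edgeR called 68 genes and passed 1990, and without it 0 and 0. Without it 577 of 14632 genes had an unadjusted p under 0.05, fewer than that threshold alone would give among unchanged genes. Of the 204 list genes that passed, 0 did so without it. DESeq2 called 0 with the block (764 of 25385 genes at an unadjusted p under 0.05) and passed 189, but gave an adjusted p to 1 of the 68. DESeq2 without the block, a setting chosen after seeing the data, called 7. With the spread of all 10 libraries 1 gene was called and 10 passed. Leaving out a replicate pair, where the spread came from the knockdown libraries, gave 0 calls for either pair, with 450 and 545 genes at an unadjusted p under 0.05. The number called was 110 with no filter on low counts, 32 with a mean of at least 50 counts, 12 with an effective length offset, 35 without shared-read genes (chosen after seeing the data) and 127 at an adjusted p under 0.05 with a 2-fold change. RLE scaling gave 89 calls, offsets for GC content and length 86, and limma-voom 59, of which 66, 64 and 58 were among the 68. The fits with RLE scaling, with no filter and with GC and length offsets estimated an unbounded prior degrees of freedom (34.6 in the reported fit, 7.2 with the effective length offset), so they gave every gene the trended spread and their counts add no separate check of the calls. The cause of these differences was not tested. Of the 68 genes, those called the same way in shEZH2 numbered 17, and 11 to 16 when 1 knockdown library was left out. The direct difference between GSK126 and shEZH2 called 2364 genes, and 2041 to 2360 under the alternatives run. None of the 129 named genes reversed direction where it passed, in any of the 11 settings run on them. Without the block no named gene kept an adjusted p under 0.05, since 121 lost it and the other 8 had not passed in the reported fit. With the spread of all 10 libraries 111 lost it, and with the effective length offset 69. In DESeq2 with the block 36 of 74 lost it, and the other 55 were given no adjusted p and kept their direction. List medians moved by more than the SD between pairs in 10 of 27 lists with GC and length offsets and in 1 with RLE scaling. With 2 replicates per group and 1 residual degree of freedom, small changes depend on the pooled estimate of spread, and genes under about 50 counts carry wide errors.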

Other observations

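Among the 40 genes with a unique symbol and the smallest p in the paired fit, chosen after their values were seen, 29 were higher and 11 lower under GSK126, 8 changed by more than 2-fold, and 26 were in none of the gene lists. The higher genes included the crosslinking enzyme TGM2 (log2 change 0.39), the plasminogen activator gene PLAT (0.48), the Notch ligand gene JAG1 (0.47), the EGF receptor ligand gene AREG (0.47), the hyaluronidase gene CEMIP (0.50) and the lysyl oxidase gene LOXL4 (0.41). ANKRD1, which together with CCN1 and CCN2 is widely used as a readout of YAP and TEAD activity, was at 190.4 and 203 CPM under DMSO and 286 and 275 CPM under GSK126, a change of 0.51, and CCN1 changed by 0.23. In shEZH2 the fitted changes of TGM2, LOXL4 and CEMIP were -1.01, -1.69 and -2.67, and those of PLAT and AREG 1.13 and 1.46.

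Among the lower genes AHNAK, which encodes a large scaffold protein, was at 3824 and 2921 CPM under DMSO and 2946 and 2410 CPM under GSK126, where the groups overlapped and both pairs fell. The plakin gene DST changed by -0.31, the ferlin gene MYOF by -0.30, the receptor gene GPRC5A by -0.43 and the calcium-binding gene S100A6 by -0.30. MALAT1, a nuclear noncoding RNA, changed by -0.34.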
